A study of Mus musculus with 12 samples.

Results

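Chemokine transcripts were followed in CD8+ T cells sorted from mouse tumours, as 7 ligand genes chosen by name out of the 773 probes measured. Ccl3, Ccl4, Ccl5 and Xcl1 are ligands that CD8+ T cells themselves make, and Ccl2, Ccl22 and Cxcl9 are ligands best known from antigen-presenting cells. MC38 colon carcinoma cells were grown in C57BL/6J mice. The 4 groups of 3 samples were Nontreated, which received no radiotherapy, and SRT, CRT and SRT-like, which are modes of radiotherapy whose abbreviations the labels do not spell out. The protocol gives a dose of 20 Gy, with no dose per mode, once tumours reached 40 to 100 mm3. The labels used here give no time after irradiation, no age of the mice and no statement that samples are separate mice. The p-values therefore refer to the spread between samples as deposited, which may be technical. Tumours were digested, enriched for CD45+ cells and sorted for CD8+ T cells, and the lysates were counted with a NanoString nCounter panel, which counts RNA molecules directly through barcoded probes without amplification.

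Chemokines are small secreted proteins that steer leukocytes by binding receptors on the cell that migrates. Activated CD8+ T cells release Ccl3, Ccl4 and Ccl5, which recruit monocytes and T cells, Ccl3 and Ccl5 in part through Ccr1, and Xcl1, which attracts the Xcr1-bearing dendritic cells that cross-present antigen. In a tumour, Ccl2 draws monocytes through Ccr2, Ccl22 from mature dendritic cells draws regulatory T cells through Ccr4, and Cxcl9, which interferon-gamma induces in macrophages and dendritic cells, draws T cells through Cxcr3.

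The samples held between 118694 and 467904 counted molecules, and the shallowest was Nontreated replicate 3. Probes for the Cd3 and Cd8 chains averaged 10.81 to 11.39 log2 normalized counts in every sample. Transcripts of other lineages were also measurable: Ighm of B cells and Cd68, Tyrobp and Cd86 of the macrophage list exceeded background in all 12 samples, whereas Cd4, Ms4a1 of B cells, and Cd14 and Csf1r of monocytes did so in none. Background was set in each sample at the mean plus 2 SD of 26 probes for genes of other tissues or a virus. Their linear mean was 16.3 normalized counts in Nontreated replicate 3, against 6.38 and 6.44 in the other Nontreated samples and 8.43 to 14.8 in the irradiated samples. Because the samples are bulk, fewer cells of a type and less RNA per cell cannot be told apart. Below, a value listed for a group is a log2 normalized count and is given in the order of replicates 1, 2 and 3. Differences between groups come from limma on those values, with an SE, and a probe passed when its p, adjusted over 773 probes, was below 0.05. The median difference over all probes against Nontreated was 0.22 for SRT, 0.26 for CRT and 0.15 for SRT-like.

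No member passed the test in any of 7 contrasts or in the F test over the 4 groups, and with voom none passed in the 7 contrasts either. The largest difference, that of Ccl22, lay between SRT and SRT-like, where all 4 T cell ligands had lower means in SRT and all 3 antigen-presenting cell ligands higher means. The T cell ligands were above background in all 12 samples. Of the other ligands, Ccl22 was above background in 9 samples, Cxcl9 in 7 and Ccl2 in 0, so the contrast between the sets rests mainly on Ccl22 for its antigen-presenting side.

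**Figure D1:**
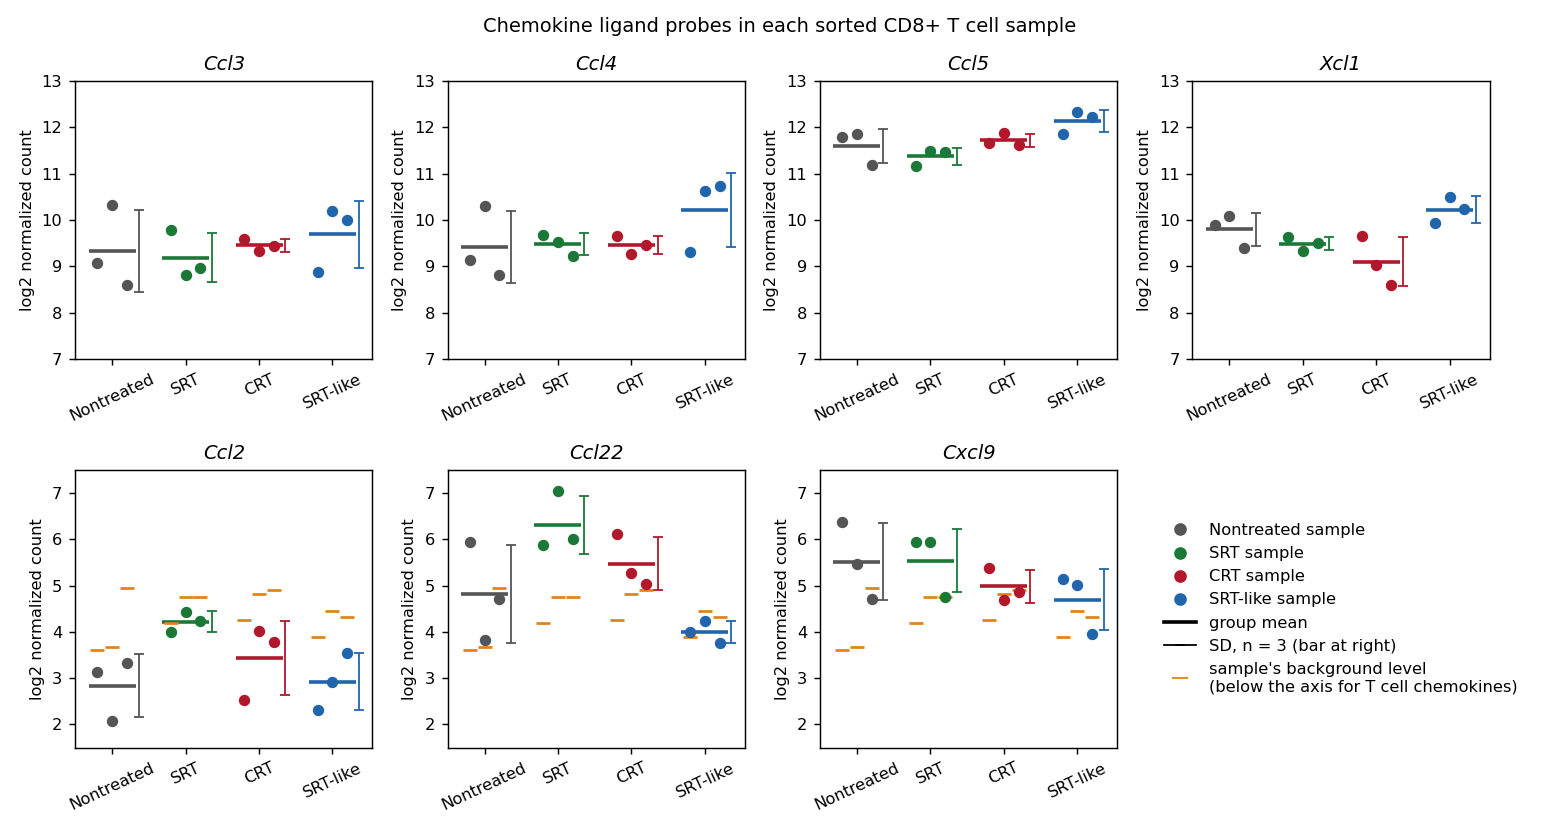
Log2 normalized count of each of the 7 chemokine ligands in each of the 12 samples, with points for samples, horizontal lines for group means and marks for the background level in the panels of the antigen-presenting cell ligands. Ccl22 lies between 5.87 and 7.03 in SRT and between 3.76 and 4.24 in SRT-like, while every Ccl2 point is below its sample's background.

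Ccl5, which recruits T cells and monocytes and is held ready as mRNA in effector and memory CD8+ T cells, was counted at 1160 to 7046 molecules per sample. Its log2 values were 11.78, 11.85 and 11.18 in Nontreated, and 11.17, 11.50 and 11.47 in SRT. They were 11.65, 11.88 and 11.61 in CRT, and 11.86, 12.33 and 12.22 in SRT-like. Every SRT-like sample was above every Nontreated and SRT sample, and the lowest SRT-like sample fell just under the highest CRT sample. Group means were ordered SRT-like (12.13 ± 0.24, SD, n = 3), CRT (11.72 ± 0.15), Nontreated (11.61 ± 0.37) and SRT (11.38 ± 0.19), and neighbours in that order overlapped.

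Xcl1, the ligand for cross-presenting dendritic cells, was counted at 226 to 2080 molecules. Nontreated samples read 9.90, 10.09 and 9.40, and SRT samples read 9.62, 9.34 and 9.50. CRT samples read 9.65, 9.03 and 8.60, and SRT-like samples read 9.93, 10.50 and 10.25. CRT held the 2 lowest values of the 12 and SRT-like the highest, and the SRT-like samples lay above all SRT and CRT samples. The order of means was SRT-like (10.22 ± 0.29, SD, n = 3), Nontreated (9.80 ± 0.36), SRT (9.49 ± 0.14) and CRT (9.09 ± 0.53), again with overlap between neighbours.

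Ccl4, a macrophage inflammatory protein, read 9.14, 10.30 and 8.81 in Nontreated and 9.69, 9.53 and 9.22 in SRT. It read 9.66, 9.27 and 9.46 in CRT and 9.31, 10.62 and 10.73 in SRT-like. Its relative Ccl3, which binds Ccr1, read 9.08, 10.31 and 8.60 in Nontreated and 9.78, 8.81 and 8.97 in SRT. Both genes spread widely inside Nontreated, where replicate 2 was the high sample. Ccl3 read 9.59, 9.32 and 9.44 in CRT and 8.87, 10.20 and 10.00 in SRT-like, and for both genes SRT-like replicate 1 stood below the other SRT-like samples. SRT-like had the highest mean of both, at 10.22 ± 0.79 for Ccl4 and 9.69 ± 0.72 for Ccl3 (SD, n = 3), and overlapped each other group.

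Ccl22, the dendritic cell ligand for Ccr4, read 5.93, 3.82 and 4.71 in Nontreated and 5.87, 7.03 and 6.01 in SRT. The values were 6.12, 5.28 and 5.03 in CRT and 4.00, 4.24 and 3.76 in SRT-like. These are small counts, with 41 to 145 molecules in SRT, 19 to 85 in CRT, 13 to 98 in Nontreated and 14 to 26 in SRT-like. It was above background in all SRT and CRT samples, in 2 Nontreated samples and in 1 SRT-like sample. The means ran from SRT (6.31 ± 0.63, SD, n = 3) through CRT (5.47 ± 0.57) and Nontreated (4.82 ± 1.06) to SRT-like (4.00 ± 0.24). Neighbouring groups overlapped, while the lowest SRT value, 5.87, was above the highest SRT-like value, 4.24. Before scaling for depth, the former rested on 70 molecules (95% Poisson interval 54.6 to 88.4) and the latter on 20 (12.2 to 30.9), where the intervals cover counting error only.

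Cxcl9, the interferon-gamma-induced ligand of Cxcr3, read 6.36, 5.46 and 4.71 in Nontreated and 5.93, 5.94 and 4.74 in SRT. CRT samples read 5.39, 4.69 and 4.87, and SRT-like samples 5.14, 5.01 and 3.95. It was above background in 2 samples each of Nontreated, SRT and SRT-like and in 1 of CRT, and all groups overlapped. Group means were 5.51 ± 0.83, 5.54 ± 0.69, 4.98 ± 0.36 and 4.70 ± 0.65 (SD, n = 3) in Nontreated, SRT, CRT and SRT-like.

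Ccl2, the monocyte attractant, gave 5 to 24 molecules per sample and was under background in all 12. Nontreated samples read 3.13, 2.07 and 3.33, SRT samples 3.99, 4.44 and 4.24, CRT samples 2.52, 4.01 and 3.78, and SRT-like samples 2.30, 2.92 and 3.54. The SRT samples lay above all Nontreated and SRT-like samples and overlapped CRT. The median difference of the 26 background probes between SRT and Nontreated was 0.42 and between SRT and SRT-like 0.39, both with SRT higher. The part of background in the Ccl2 and Ccl22 differences was not tested.

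SRT against SRT-like asked how these modes differ, and it held the widest spread of chemokine differences. Sample numbers 10 to 12 were SRT-like alone, so an effect of sample order cannot be told apart from this group. Ccl22 was 2.31 ± 0.51 log2 units higher in SRT, a 4.94-fold difference with a 95% interval of 1.18 to 3.43 log2 units. It ranked 1 of 773 probes by p (limma adjusted p = 0.718). Ccl5 was lower in SRT by 0.76 ± 0.22 (SE), rank 3 by p, and Xcl1 was lower by 0.74 ± 0.28 (SE), rank 21; both had a limma adjusted p of 0.838. Ccl2 differed by 1.30 ± 0.46 (SE), but by only 0.35 when values under background were raised to it, which took the Ccl22 difference to 2.05. Ccl4 differed by -0.74 ± 0.43, Ccl3 by -0.50 ± 0.47 and Cxcl9 by 0.84 ± 0.48 (SE), with overlapping groups. In all, 4 of 7 members had groups that did not overlap, against 10.5% of all probes, and 4 of 7 had an unadjusted p below 0.05, against 5.69%. Ccl2, under background throughout, is among the 4 in both counts, and Ccl22, Ccl5 and Xcl1 are the others. None passed the adjusted threshold, nor did any of the 773 probes (0%).

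The set averages put that contrast per sample. The mean log2 value of the 4 T cell ligands minus that of the 3 antigen-presenting cell ligands was 4.80, 3.99 and 4.79 in SRT and 6.18, 6.85 and 7.05 in SRT-like. It was 4.83, 6.86 and 5.25 in Nontreated and 5.46, 5.22 and 5.22 in CRT. All SRT samples were thus the lowest of the 12, with Nontreated replicate 1 next, and SRT-like lay above SRT and CRT but overlapped Nontreated. Probes differ in capture, so only the change of this difference across samples can be read, and no test was made of it because the members were chosen with results known. With values under background raised to it, SRT spanned 3.88 to 4.73 and overlapped Nontreated at 4.55 to 6.32, while SRT-like at 5.65 to 6.48 stayed above SRT. Most of the separation between SRT and SRT-like lay in the antigen-presenting side, whose group means were 5.36 ± 0.41 and 3.87 ± 0.16, against 9.88 ± 0.16 and 10.57 ± 0.50 for the T cell side (SD, n = 3).

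**Figure D2:**
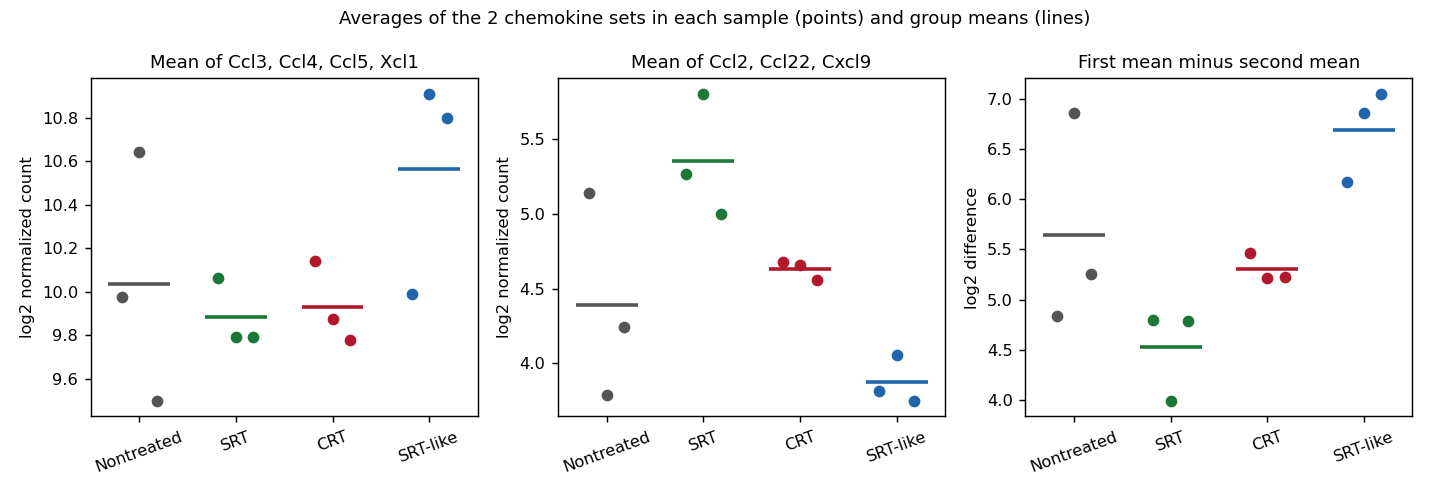
Mean log2 normalized count of the T cell ligands (left) and of the antigen-presenting cell ligands (centre), and their difference (right), with points for samples and lines for group means. The difference is 3.99 to 4.80 in SRT and 6.18 to 7.05 in SRT-like.

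SRT-like against CRT had its smallest member p in Xcl1, which was 1.13 ± 0.28 log2 units higher in SRT-like, 2.19-fold, with a 95% interval of 0.50 to 1.76 (rank 3 of 773 by p, limma adjusted p = 0.369). Ccl22 had the larger difference, lower in SRT-like by 1.47 ± 0.51 (SE; limma adjusted p = 0.404). These 2 of 7 members had groups that did not overlap, against 18.5% of all probes, and were also the 2 with an unadjusted p below 0.05, against 9.83%. All 4 T cell ligands had higher means in SRT-like, with a median difference of 0.59 against -0.11 over all probes, and all 3 antigen-presenting cell ligands had lower means. No probe passed in this contrast (0%).

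SRT against CRT showed smaller differences. Ccl5 was 0.34 ± 0.22 lower in SRT, and it was the 1 member of 7 whose groups did not overlap, against 11.4% of all probes. Ccl22 was 0.83 ± 0.51, Ccl2 0.79 ± 0.46 and Cxcl9 0.56 ± 0.48 higher in SRT (SE). None of the members had an unadjusted p below 0.05, against 6.6% of all probes, and no probe passed the adjusted threshold (0%). The 95% interval for Ccl22 ran from -0.29 to 1.95, so sizes from slightly lower to several fold higher in SRT were within its error.

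**Figure D3:**
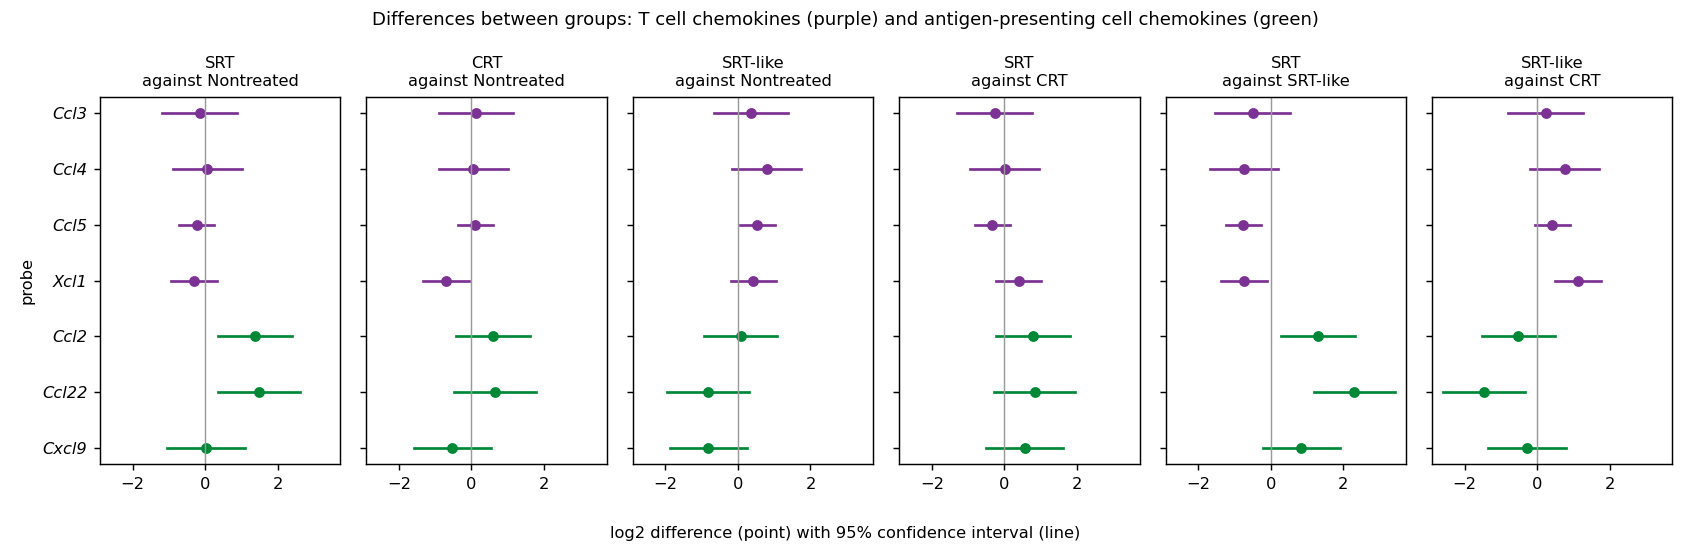
Log2 differences of the 7 ligands in the group contrasts, as limma estimates with 95% intervals. The Ccl22 interval for SRT against SRT-like, 1.18 to 3.43, and the Xcl1 interval for SRT-like against CRT, 0.50 to 1.76, lie farthest from 0.

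Against Nontreated, the question was what irradiation did to each ligand. In SRT, Ccl22 was 1.48 ± 0.51 and Ccl2 1.38 ± 0.46 log2 units higher (SE; limma adjusted p = 0.271 and 0.268). Only Ccl2 had groups that did not overlap, 1 of 7 members against 13.2% of all probes, and its difference was 0.50 with background as a floor. In SRT-like, Ccl5 was 0.53 ± 0.22 higher (SE; adjusted p = 0.374) and was the 1 of 7 members with separate groups, against 16.3% of all probes. Ccl4 was 0.80 ± 0.43 higher there, and Ccl22 and Cxcl9 were lower by 0.82 ± 0.51 and 0.81 ± 0.48 (SE), with overlap. In CRT, Xcl1 was lower by 0.70 ± 0.28 (SE; adjusted p = 0.280), and 0 of 7 members had separate groups, against 17.6% of all probes. The share of probes past the adjusted threshold was 0% for SRT, 3.1% for CRT and 0.647% for SRT-like, and no member was among them. An unadjusted p below 0.05 was seen for 2 members in SRT and 1 each in CRT and SRT-like, against 10.9%, 15.4% and 11.1% of all probes. These contrasts share the Nontreated samples.

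For the mean of the 3 modes against Nontreated, the members' differences ran from -0.44 for Cxcl9 to 0.69 for Ccl2, and none passed although 3.1% of all probes did. No member had separate groups, against 4.92%, or an unadjusted p below 0.05, against 15.3%. In the F test over the 4 groups, Ccl22 had the smallest p among the members (limma adjusted p = 0.169), before Xcl1 (adjusted p = 0.253), Ccl5 (0.331) and Ccl2 (0.375). That made 4 of 7 members with an unadjusted p below 0.05, against 11.9% of all probes, while 0% of probes passed. The call for Ccl22 differed between settings: it passed with a trended robust prior (adjusted p = 0.0321) and with voom on the recovered counts (0.0448), which changes scaling as well as the variance model, and Xcl1 passed with the former (0.0483). Calls over all 773 probes also rose in these settings, to 23 with the trended robust prior and 27 with voom.

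Ccl3 and Ccl4, which neighbour each other on chromosome 11 in the RefSeq annotation of GRCm38.p6, moved together from sample to sample. Their Pearson r over the 12 samples was 0.88 (permutation p = 0.00013, adjusted over 21 pairs 0.00273) and Spearman's rho was 0.82 (permutation p = 0.00172, adjusted 0.0361). The r was 0.81 without the 2 samples farthest from the median Ccl3 value, and 0.93 after group means were removed. It was the only pair of the 21 that passed. All 6 pairs among the T cell ligands had r above 0, from 0.50 to 0.88, and 9 of the 21 pairs did. The within-sample difference of Ccl4 minus Ccl3 was 0.44, 0.42 and 0.73 in SRT-like and lay between -0.05 and 0.07 in CRT. It was -0.10, 0.72 and 0.25 in SRT and 0.07, -0.01 and 0.21 in Nontreated, so SRT-like lay above Nontreated and CRT in this difference and overlapped SRT. The labels name no batch, and the groups are too small for an r within each.

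The probes most like each member over the 12 samples were named by Pearson's r among 415 probes above background in every sample, as a description without a p. All probes of a sample share its depth and background. For Ccl3 they were Ccl4 (0.88), Ifng (0.87), the effector cytokine interferon-gamma, and Cflar (0.72), a brake on death receptor signalling. For Ccl4 they were Ccl3, Nfkbia (0.87), the feedback inhibitor of NF-kB, and Nr4a1 (0.84), an immediate target of T cell receptor signalling. Ccl5 was most like Klrc1 (0.81), which encodes the inhibitory receptor NKG2A, Tnfaip3 (0.80), another NF-kB inhibitor, and Nr4a1 (0.77). Xcl1 was most like Rara (0.78), a retinoic acid receptor, Itgav (0.66) and Cd8a (0.66), but after removal of group means the last 2 had r of 0.15 and 0.13. Ccl22 was most like Igkc (0.72), the immunoglobulin kappa constant chain of B and plasma cells, and H2-Aa (0.71), an MHC class II chain. After removal of group means these r were 0.61 and 0.63. Other antigen-presenting or macrophage markers differed: Ccl22 had r of 0.64 with H2-Ab1, 0.68 with H2-Eb1, 0.59 with Tyrobp and 0.39 with Siglech. With Ccr7 it was 0.09 and with Cd68 -0.24. After removal of group means, the r was -0.88 with Cd68, -0.04 with Siglech and 0.38 to 0.65 with the others. Cxcl9 was most like Sh2d1a (0.83), an adaptor of SLAM receptors, Tnfrsf4 (0.72), the co-stimulatory receptor OX40, and Ldha (0.72), a lactate dehydrogenase. Ccl2, whose values were all under background, was most like Ehhadh (0.84), Lif (0.80) and Il27ra (0.74).

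**Figure D4:**
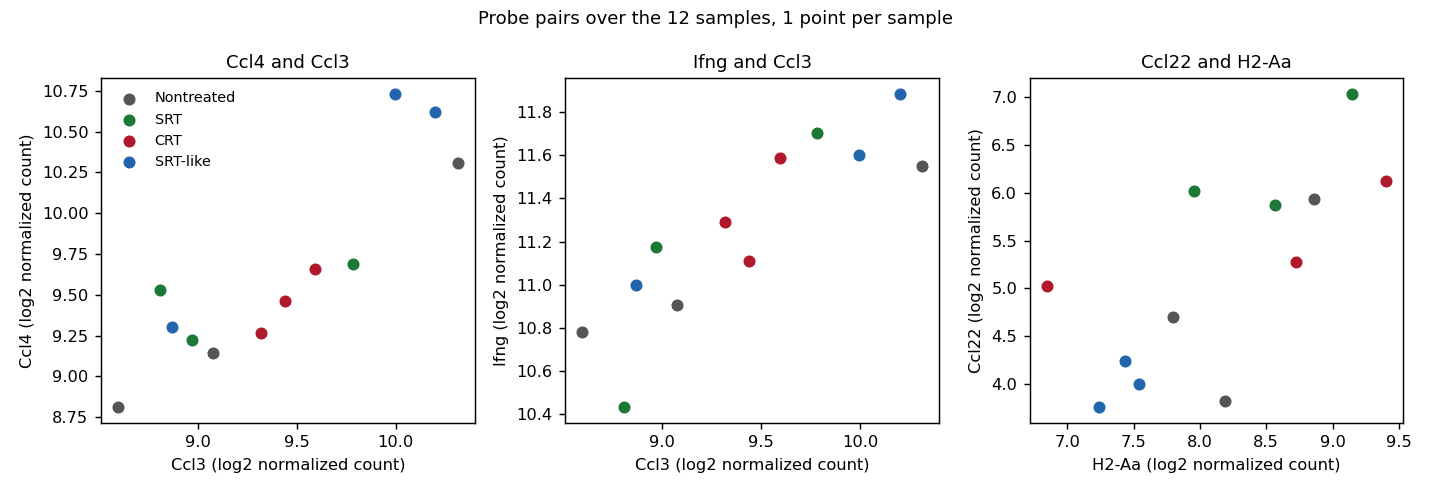
Log2 normalized counts of pairs of probes in the 12 samples, with a point for each sample coloured by group. Ccl4 follows Ccl3 with a Pearson r of 0.88, Ifng follows Ccl3 with an r of 0.87, and Ccl22, on the vertical axis, follows H2-Aa with an r of 0.71.

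Transcripts of other cells were measured beside the Ccl22 differences. H2-Aa read 8.86, 8.19 and 7.80 in Nontreated, 8.57, 9.15 and 7.95 in SRT, 9.41, 8.72 and 6.84 in CRT, and 7.54, 7.44 and 7.24 in SRT-like. It was 1.15 ± 0.57 higher in SRT than in SRT-like (SE; limma adjusted p = 0.887), with groups that did not overlap. Siglech, a plasmacytoid dendritic cell receptor, was above background in 1 SRT-like sample and in all 9 others. Of 9 measured markers of dendritic and antigen-presenting cells, 7 had a higher mean in SRT than in SRT-like, with a median difference of 0.99 against 0.01 over all probes. Their summed level ranged from 11.11 to 11.83 in Nontreated, 11.49 to 11.69 in SRT, 10.06 to 11.38 in CRT and 11.08 to 11.60 in SRT-like. The list includes Ccr7, which T cells also express, and Ciita was above background in no sample. The sum is of linear values, and Ccr7, at 9.30 to 11.33, was its largest part in every sample, before H2-Aa at 6.84 to 9.41. The summed level therefore cannot be read as the content of antigen-presenting cells. Of 8 measured macrophage and monocyte markers, 7 had a higher mean in SRT than in SRT-like, and the summed level was 8.14 to 8.73 in Nontreated, 8.52 to 8.86 in SRT, 8.92 to 9.27 in CRT and 8.37 to 8.68 in SRT-like. Of the marker genes against Nontreated, Cd80 rose in SRT-like (2.13 ± 0.38, SE; limma adjusted p = 0.0421), where 0.647% of all probes passed. That call was lost with median centring, quantile normalization, Cd3/Cd8 scaling or background as a floor, where no probe passed in the contrast. Cd80 and Itgax were the members of the dendritic list with higher means in SRT-like than in SRT. In CRT, where 3.1% of all probes passed, Cd86 rose (0.98 ± 0.17, SE; limma adjusted p = 0.0151). Blk also passed in CRT (adjusted p = 0.0461), but on 5 to 24 molecules and above background in 1 CRT sample and no Nontreated sample, so no size is given. The 26 background probes had a median difference of 0.62 in that contrast. In SRT against SRT-like, 5 of 5 B and plasma cell markers also had higher means in SRT (median difference 0.43), as did 21 of 26 background probes (0.39), against 401 of all 773 probes. The macrophage list's median was 0.46. The part of such cells in the Ccl22 values was not tested.

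Receptors for these ligands were read in the same sorted samples, and 2 of the 6 on the panel rose in CRT against Nontreated, where 3.1% of all probes passed. Being bulk values, they do not show which cells carried the receptors. Ccr1, the receptor of Ccl3 and Ccl5, rose by 1.25 ± 0.24 (SE; limma adjusted p = 0.0197) in CRT and by 1.45 ± 0.24 (adjusted p = 0.0421) in SRT-like, where 0.647% of all probes passed and the other 5 receptors did not. Its counts were small, at 10 to 39 molecules in Nontreated and 27 to 88 in the irradiated samples. It was above background in 2 of 3 Nontreated samples and in all 9 irradiated samples, so the sizes of its rise are uncertain. No probe passed in SRT-like against Nontreated with median centring, quantile normalization, Cd3/Cd8 scaling or background as a floor, while 15 did with sample weights. In CRT against Nontreated, the probes that passed ranged from 0 without CRT replicate 2 to 62 with sample weights. Cxcr3, the receptor of Cxcl9, rose by 1.23 ± 0.22 (adjusted p = 0.0162) in CRT. For the mean of the 3 modes the same 2 receptors passed, against 3.1% of all probes, Ccr1 by 1.31 ± 0.20 and Cxcr3 by 0.82 ± 0.18 (SE; adjusted p = 0.0161 and 0.0372). In SRT, Ccr1 read 5.27, 5.38 and 5.98 against 4.61, 4.02 and 4.33 in Nontreated, a difference of 1.22 ± 0.24 (SE; adjusted p = 0.150). No receptor passed in SRT, where 2 had an unadjusted p below 0.05 against 10.9% of all probes, or between modes, and none passed downward. Ccr2 differed by 0.62 ± 0.28 in CRT (SE; adjusted p = 0.324), and Ccr7, which guides T cells to lymph nodes, by -1.08 ± 0.28 (adjusted p = 0.0772). Xcr1 and Ccr4 were not analysed here.

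The other 7 chemokine ligand probes were near background. Ccl12, a monocyte attractant of mice, read 3.78 to 6.09 in Nontreated and 4.80 to 5.98 in the irradiated samples and was above background in all 12. Ccl21a/b/c was above background in 2 samples, and Ccl20, Cxcl1, Cxcl2, Cxcl3 and Cxcl11 in none. Ccl21a/b/c, a lymphoid tissue ligand of Ccr7 whose probe covers several copies, read 4.27, 4.44 and 5.05 in SRT and 3.39 to 4.00 in Nontreated, a difference of 0.98 ± 0.27 (SE; limma adjusted p = 0.198). None of the 7 passed in any contrast, and at most 2 had an unadjusted p below 0.05 in a contrast. These were CRT against Nontreated, against 15.4% of all probes, and SRT-like against CRT, against 9.83%.

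T cell receptor signalling is a known inducer of the T cell ligands and of a list of 9 other measured genes. None of the 9 passed in any contrast (limma). At most 4 had an unadjusted p below 0.05 in a contrast, that of SRT-like against Nontreated, against 11.1% of all probes. All 9 had a lower mean in SRT than in SRT-like, with a median difference of -0.39 against 0.01 over all probes, as all 4 T cell ligands did. Of 6 measured CD8 T cell markers, 0 had a higher mean in SRT, with a median difference of -0.14. The part of T cell receptor signalling in the T cell ligand differences was not tested. Nr4a1 read 9.53, 10.73 and 10.63 in SRT-like and 9.29, 9.75 and 9.89 in SRT, with the same low SRT-like replicate 1 as Ccl3 and Ccl4. Tnf, an inflammatory cytokine, read 6.81, 8.12 and 8.01 in SRT-like and 6.93, 6.96 and 7.31 in SRT. Cd69, an early activation antigen, read 7.42, 8.20 and 8.55 against 7.17, 7.36 and 8.10. Both overlapped between the modes, as Nfkbia did at 9.89 to 10.97 in SRT-like and 9.85 to 10.30 in SRT. Irf8, a transcription factor, lay at 10.05 to 10.18 in SRT-like and at 9.62 to 9.94 in SRT, without overlap (difference -0.37 ± 0.16, SE; limma adjusted p = 0.838).

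Cxcl9 was set beside 10 measured interferon-induced genes. Of these, 6 rose in CRT against Nontreated, where 3.1% of all probes passed, and none fell, with Rsad2 up by 2.63 ± 0.35, Ifit3/3b by 2.53 ± 0.39, Ifit1 by 2.46 ± 0.42, Mx1 by 2.20 ± 0.45, Oas1a by 1.91 ± 0.33 and Bst2 by 1.74 ± 0.31 (SE; limma adjusted p = 0.011 to 0.0247). The list's median difference was 1.82, against 0.26 over all probes, and Cxcl9 differed by -0.53 ± 0.48 (SE; adjusted p = 0.620). In SRT-like 1 of 10 passed, Rsad2 at 1.87 ± 0.35 (SE), against 0.647% of all probes. The Rsad2 call there was lost with median centring, quantile normalization, Cd3/Cd8 scaling or background as a floor, where no probe passed. In SRT none of the 10 passed, although 7 of 10 had an unadjusted p below 0.05, against 10.9% of all probes. The list medians were 1.06 in SRT-like and 1.03 in SRT.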

How the data were processed

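The deposited values are log2 nCounter counts that the authors normalized with ROSALIND, per the labels, which do not give its version, reference probes or background handling. After 2 was raised to each deposited log2 value, 100% of the values of a sample were whole multiples (within 0.01) of the same step, which gave back molecule counts and totals. The 26 background probes were picked by the tissue of their genes. All 773 probes entered limma 3.58.1 (R 4.3.3; lmFit, eBayes without trend) on the 12 samples with 4 group means, 2-sided, with Benjamini-Hochberg adjustment. The script was tested on simulated data. Pairs of members were tested with 100000 permutations. Same-group samples differed beyond counting noise (chi-square per degree of freedom 3.87 to 12.5), so no count set was a copy of another in its group. Samples of different groups were not compared in this way. The values do not tell technical repeats from separate samples. Names of 756 probes, and of all 7 members, matched RefSeq GRCm38.p6. Named genes were every member, the 3 probes most like each (1 of those of Ccl22 is not reported here), and list genes past the threshold or, where none passed, up to 4 by smallest F-test p; Siglech, Ccr2 and Ccr7 were added after their values were seen. Members, gene lists and background probes were chosen with earlier results of these data known. Alternatives tried were median, quantile and Cd3/Cd8 scaling, background as a floor or filter, sample weights, a trended robust prior, voom, a block and leaving out each sample.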

Additional observations from a re-analysis of the deposited data

How the results depend on the processing

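Over 49 member differences and 1029 alternative values, 0 passed the threshold (lowest adjusted p 0.0708) and 58 turned sign, in 16 differences of at most 0.79 log2 units. The F test called 2 members with a trended robust prior, where 23 of all 773 probes passed, and 1 with voom, where 27 did. The cause was not tested. Calls over all probes varied as well. In SRT-like against Nontreated there were 5 in the main fit and 15 with sample weights. With median centring, quantile normalization, Cd3/Cd8 scaling or background as a floor there were 0. In CRT against Nontreated there were 24 in the main fit, 6 with Cd3/Cd8 scaling, 0 without CRT replicate 2 and 62 with sample weights. For the 3 modes there were 24 in the main fit, 0 with Cd3/Cd8 scaling and 64 with sample weights. The T cell minus antigen-presenting cell average moved to 3.58 in SRT and 4.46 in CRT with only probes above background, which leaves Ccl22 alone on the antigen-presenting side, and to 4.88 in CRT and 6.13 in SRT-like with background as a floor. Signs turned against Nontreated as follows, with causes not tested. Median centring gave -0.21 (Ccl4) and -0.24 (Cxcl9) in SRT, -0.20 (Ccl3), -0.28 (Ccl4) and -0.21 (Ccl5) in CRT, -0.10 (Ccl2) in SRT-like, and -0.15 (Ccl3) and -0.12 (Ccl5) for the 3 modes. Quantile normalization gave -0.15 (Cxcl9) in SRT, -0.0278 (Ccl3), -0.0655 (Ccl4) and -0.024 (Ccl5) in CRT, -0.14 (Ccl2) in SRT-like and -0.0192 (Ccl3) for the 3 modes. Sample weights gave -0.12 (Ccl4) and -0.055 (Cxcl9) in SRT, -0.15 (Ccl3), -0.19 (Ccl4) and -0.00743 (Ccl5) in CRT and -0.20 (Ccl3) for the 3 modes. Voom gave -0.0453 (Cxcl9) in SRT, -0.052 (Ccl3), -0.12 (Ccl4) and -0.0318 (Ccl5) in CRT, -0.0188 (Ccl2) in SRT-like and -0.038 (Ccl3) for the 3 modes. Background as a floor gave -0.048 (Cxcl9) in SRT and, for SRT against CRT, -0.085 (Ccl2). Scaling to Cd3 and Cd8 genes gave -0.079 (Ccl2) in SRT-like and -0.00922 (Ccl4) for SRT against CRT.

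Leaving out each sample in turn gave, against Nontreated, -0.51 to 0.35 (Ccl3), -0.25 to 0.50 (Ccl4) and -0.37 to 0.46 (Cxcl9) in SRT, -0.24 to 0.61 (Ccl3), -0.26 to 0.49 (Ccl4) and -0.10 to 0.23 (Ccl5) in CRT, and -0.0062 to 0.85 (Ccl3) and -0.31 to 0.39 (Ccl2) in SRT-like. For the 3 modes it gave -0.25 to 0.61 (Ccl3), -0.0042 to 0.74 (Ccl4), -0.074 to 0.26 (Ccl5) and -0.059 to 1.00 (Ccl22). It gave -0.089 to 0.14 (Ccl4) for SRT against CRT, and -0.018 to 0.65 (Ccl3) and -0.50 to 0.091 (Cxcl9) for SRT-like against CRT. In all, leaving out 1 sample turned the sign of 15 of the 49 differences, moved 25 others by over 1.5 times and left 9 within that. Those moved include, against Nontreated, Ccl22 in SRT (0.99 to 2.04) and SRT-like (-1.32 to -0.26), Cxcl9 in SRT-like (-1.22 to -0.39), Ccl5 in SRT-like (0.32 to 0.67) and Xcl1 in CRT (-0.98 to -0.45), and Ccl22 in SRT against CRT (0.47 to 1.16). Ccl22 in SRT against SRT-like ranged from 1.94 to 2.52 and Xcl1 in SRT-like against CRT from 0.88 to 1.41. No paired analysis was made because the labels state no pairing of samples. With sample numbers 1 to 5 and 6 to 9 as blocks, Cxcl9 turned to -0.27 in SRT against Nontreated; SRT-like held samples 10 to 12 alone, so its run and its group cannot be told apart. Counts of 5 to 24 molecules limit Ccl2.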
